A study of Rattus norvegicus with 108 samples.

Results

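The dorsal dentate gyrus (dorDG) was compared with the ventral dentate gyrus (venDG) in rats that received no drug. The data were single-cell transcript counts, and every cell labelled Sham in either region was taken, which gave 1528 of 3347 cells, 719 from dorDG and 809 from venDG. The rats were male Long-Evans rats from Charles River, 2 months old at the start. Sham rats drank water for 6 weeks, whereas the other groups (FT) drank fluoxetine, a serotonin reuptake inhibitor, at 18 mg/kg. The FT replicates, 4 of dorDG and 5 of venDG, were used here only as a second set of dorDG and venDG tissue. Each region had 5 Sham replicates. Cells that carried the same replicate number were summed over their 10x Genomics reactions. The study's methods describe each replicate as a pool of several animals, so variation between single animals was not measured, and p-values below refer to the spread between pools. The dorDG replicates 1 to 5 held 230, 138, 100, 135 and 116 cells, and the venDG replicates 331, 176, 42, 201 and 59 cells. Summed unique molecular identifiers (UMIs), the count of captured transcripts, ranged from 490584 to 1105869 per dorDG replicate and from 220162 to 1100761 per venDG replicate.

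The dentate gyrus is the entry station of the hippocampus. Its granule neurons receive cortical input, send mossy fibres to CA3, and are among the few neurons that continue to be born in adult rodents. The dorsal end of the hippocampus is usually linked with spatial and contextual memory and the ventral end with stress and anxiety, and hippocampal neurons carry high levels of mineralocorticoid and glucocorticoid receptors.

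The labelled tissue was checked against granule cell markers before any comparison. Prox1, the transcription factor that maintains granule cell identity, was detected in all 10 replicates, at 0.678, 0.795, 1.67, 1.03 and 0.999 UMIs per 10000 in dorDG and at 0.418, 0.708, 0.50, 0.461 and 0.717 in venDG. Its 4 highest values were dorDG values, but the groups overlapped. The granule cell gene C1ql2 was nearly absent, with a value above 0 in dorDG replicate 2 alone (0.0346 UMIs per 10000). Clustering of the Sham cells of both regions together placed 147 dorDG and 36 venDG cells in a Granule-like class, so most of the recovered cells of both regions fell outside that class. The class joined 2 clusters, and 20 of the 36 venDG cells lay in the cluster named from 3 markers only (Glis3, Rfx3 and Plk5). Those 20 cells had 0.899 UMIs per 10000 of Prox1 and 0.281 of Plk5, the other 16 venDG cells 1.38 of each. Shares of this class are thus less certain as granule cell shares in venDG. Recovery of a cell type from the tissue was not measured. The authors' cell names, given for dorDG only, spread the Granule-like cells over several names, with 106 of the 147 named InhibNeuron, 18 Granule and 16 ExcitNeuron. Their InhibNeuron class (120 Sham cells) had 2.05 UMIs per 10000 of Prox1 and 2.13 of Plk5. It had 0.239 of the GABA-synthesising enzyme Gad1 and 0 of the vesicular GABA transporter Slc32a1. Their Granule class (73 cells) had 1.16 of Prox1 and 0.736 of Plk5. Their Mossy class (23 cells) had 7.63 of the pericyte gene Vtn and 0 of the mossy cell gene Drd2. The names used below therefore come from the shared clustering.

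Cells differed in preparation as well as in region. Many cells had under 2% of their UMIs in cytosolic ribosomal protein genes (ribosome-poor), and the rest are called ribosome-rich. The 4 replicates with 2 reactions had 4.08% to 12.5% ribosome-poor cells in the first reaction and 85.7% to 93.9% in the second. The labels mention nuclei only, the methods both intact cells and nuclei, and the content of a given reaction is not stated. The ribosome-poor share was 51.2% ± 14.7 (SD, n = 5) in dorDG and 40.1% ± 16.7 in venDG, higher in dorDG in 5 of 5 pairs of replicates with the same number, with a two-sided exact permutation p of 0.294. Because granule cells were nearly all ribosome-poor, each comparison was repeated within both kinds of cell. Of 6 measures of the cells, 1 passed an adjusted p of 0.05: the median share of UMIs from mitochondrially encoded genes was 4.28% ± 1.24 in dorDG and 6.52% ± 0.976 in venDG, with dorDG values of 3.58%, 5.74%, 3.36%, 5.50% and 3.21% and venDG values of 8.01%, 5.98%, 5.80%, 5.79% and 7.01%. Every dorDG replicate lay below every venDG replicate (exact permutation p = 0.00794, the smallest that 5 against 5 allow, adjusted p = 0.0476), but the first reactions alone differed by -1.42 percentage points with an exact permutation p of 0.286. Median UMIs per cell were 3593 ± 928 in dorDG and 3066 ± 657 in venDG (exact permutation p = 0.381), and detected genes per cell were 1979 ± 449 and 1618 ± 188 (p = 0.135 in the same test).

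Granule-like cells took a larger mean share of dorDG than of venDG, and microglia and mural cells a smaller one, but none of 10 shares passed correction. The Granule-like share was 24.3%, 3.62%, 39.0%, 12.6% and 25.9% in dorDG replicates 1 to 5 and 4.83%, 1.71%, 7.14%, 6.47% and 1.69% in venDG replicates, with means of 21.1% ± 13.5 and 4.37% ± 2.58 (SD, n = 5). It was higher in dorDG in 5 of 5 same-number pairs, and 4 of the 5 dorDG replicates lay above every venDG replicate, with dorDG replicate 2 the exception (exact permutation p = 0.0317, adjusted p = 0.132 over 10 classes). Microglia-like cells, the resident immune cells of the brain, made up 14.7% ± 1.59 of dorDG and 21.7% ± 5.70 of venDG (exact permutation p = 0.0317, adjusted p = 0.132). Mural-like cells, the pericytes and smooth muscle of vessels, made up 1.76% ± 2.07 and 5.45% ± 2.35 (exact permutation p = 0.0397, adjusted p = 0.132). Among ribosome-rich cells alone, where Granule-like cells numbered 3 in all, the corresponding differences gave exact permutation p-values of 1.0, 0.532 and 0.0556. Among ribosome-poor cells, the Granule-like share was 39.5% ± 20.2 in dorDG and 13.1% ± 12.2 in venDG. It was higher in dorDG in 5 of 5 same-number pairs (exact permutation p = 0.0476, adjusted p = 0.238 over 10 classes). The Microglia-like and Mural-like differences there gave exact permutation p-values of 0.524 and 0.286. The shares of astrocyte-, oligodendrocyte-, oligodendrocyte precursor (OPC)-, endothelial- and excitatory-like cells overlapped between regions with exact permutation p-values of 0.190 to 0.611. Unnamed cells made up 18.05% of dorDG and 20.29% of venDG (exact permutation p = 0.762). Their median was 1420 UMIs per cell, against 5832 in Granule-like cells. In an unnamed cluster of 51 dorDG and 75 venDG cells, the authors had named 72.55% of the dorDG cells Granule. Whether this cluster held granule cells was not tested.

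**Figure D1:**
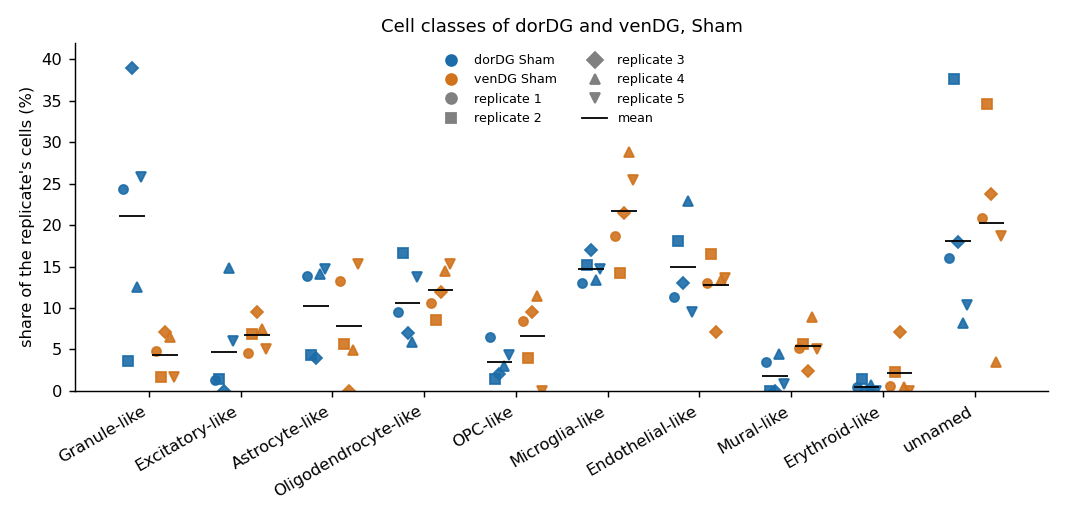
Share of each replicate's cells in each class (vertical axis, percent) for the 5 dorDG and 5 venDG Sham replicates, with marker shapes for replicate numbers and a bar for the group mean. The Granule-like shares of dorDG spread from 3.62% to 39.0%, those of venDG from 1.69% to 7.14%.

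When all cells of a replicate were summed, the number of genes called depended on the test: edgeR called 0 genes unpaired and 105 paired, and DESeq2 called 155 unpaired. The filter on low values (a mean over the replicates of 0.5 UMIs per 10000 or more) left 4313 genes. The edgeR quasi-likelihood test called 0 of them (0.0%) at the thresholds of the study, which were 0.2 for the adjusted p (Benjamini-Hochberg) and 0.32 for the size of the log2 fold change. The lowest adjusted p was 0.213. At an unadjusted p under 0.05 it found 236 genes higher in dorDG (5.47%) and 125 lower (2.9%), and limma called 0 with 324 genes under an unadjusted p of 0.05. Without the filter edgeR called 61 genes. Leaving out single replicates moved the unpaired count to 200 without dorDG replicate 2 and to 83 without venDG replicate 3. Replicates with the same number in both regions deviated from their group means together, with correlations of 0.203 to 0.565 in the 5 pairs. Replicates of different numbers had correlations of -0.466 to 0.28, and 4 of 5 dorDG replicates correlated best with their own number. The replicate numbers were also entered in the fit as a replicate block. These are the numbers of the labels, and the authors number the dorDG replicates differently in their annotation, so every paired count rests on the label numbers. That fit called 79 genes higher (1.83% of those tested) and 26 lower in dorDG (0.603%). In these sums fewer cells of a type and less RNA per cell cannot be told apart.

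The genes higher in dorDG in the paired fit included transcription factors, adhesion molecules, receptor subunits and signalling genes of neurons. The log2 fold changes in the next sentences are from that fit, dorDG over venDG. Bcl11b, a zinc-finger transcription factor of granule and other forebrain neurons, stood at 0.561, 0.587, 1.14, 0.740 and 1.13 UMIs per 10000 in dorDG and at 0.218, 0.206, 0.454, 0.157 and 0.322 in venDG, a log2 fold change of 1.56 ± 0.215 (SE; edgeR adjusted p = 0.0952). Clstn2, a calsyntenin of the postsynaptic membrane, stood at 8.05, 3.16, 13, 5.21 and 6.42 in dorDG and at 2.12, 2.83, 3.09, 2.11 and 1.68 in venDG, a log2 fold change of 1.40 ± 0.255. Shisa6, an auxiliary subunit of AMPA receptors, stood at 2.63, 1.75, 3.36, 1.71 and 2.33 in dorDG and at 0.654, 1.53, 1.05, 0.810 and 0.609 in venDG, a log2 fold change of 1.27 ± 0.252. Every dorDG replicate exceeded every venDG replicate for these 3 genes, and replicates 2 and 4 were the lowest of dorDG for 2 of them. Such separation was seen for 15 of the 79 genes (19%) and for 1.14% of all genes tested. The other 9 named among them were Klhl29 (log2 fold change 1.37), the kinase Mast3 (1.13), the glycosyltransferase Galnt18 (1.06), the guanine nucleotide exchange factors Vav3 (1.03) and Plekhg5 (0.92), Adap1 (0.95), Fam19a1 (0.94), Dtnb (0.87) and the scaffold Iqgap2 (0.78).

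**Figure D2:**
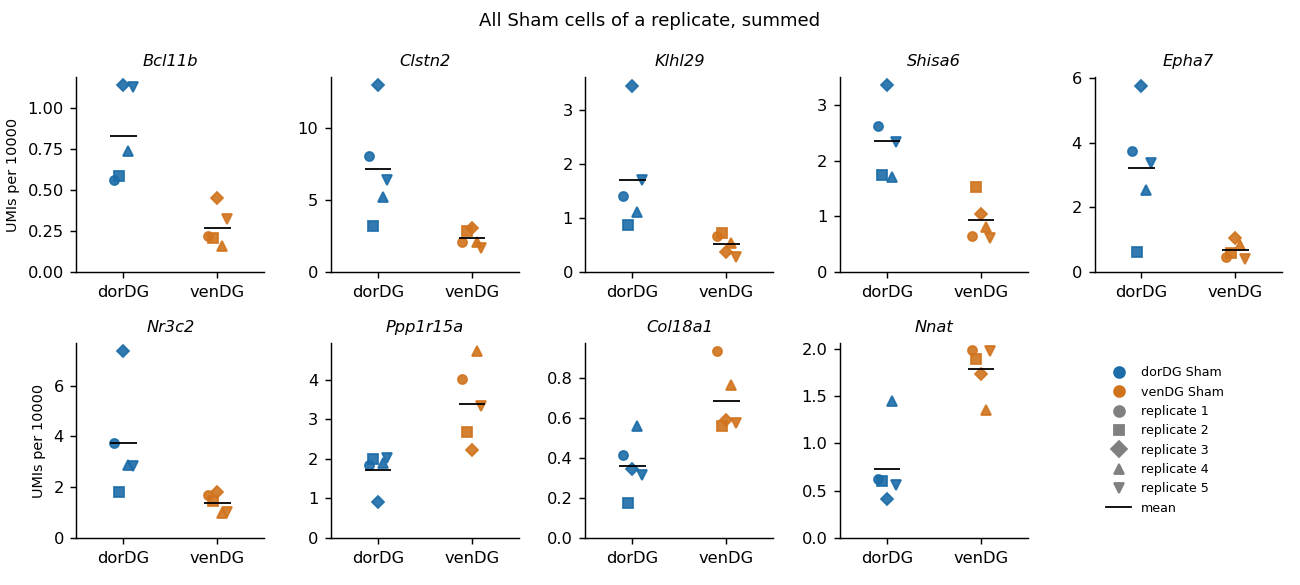
UMIs per 10000 (vertical axes, from 0) of 9 genes in the sum of all Sham cells of each replicate, with marker shapes for replicate numbers and bars for group means. Bcl11b, Clstn2, Klhl29 and Shisa6 lay higher in every dorDG replicate than in any venDG replicate and Ppp1r15a and Col18a1 lower, while Epha7, Nr3c2 and Nnat overlapped between the groups.

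The largest paired fold changes belonged to genes whose groups overlapped, and they are named here after their values were seen. Epha7, a receptor of the ephrin family that guides axons and shapes synapses, stood at 3.73, 0.622, 5.77, 2.55 and 3.37 UMIs per 10000 in dorDG and at 0.472, 0.605, 1.04, 0.832 and 0.394 in venDG. It had a log2 fold change of 1.96 ± 0.366 (edgeR adjusted p = 0.107 with the block), with dorDG replicate 2 at the level of venDG. Adcy1, the calcium-stimulated adenylyl cyclase of neurons, followed with 1.75 ± 0.416. Of 6 Eph receptors tested, 4 were called higher with the block and 0 lower: Epha7, Epha6 (1.51), Epha4 (1.26) and Epha3, beside 1.83% of all genes called higher. The median unpaired log2 fold change of the 6 went from 1.16 to 0.20 without Granule-like cells. Nr3c2, the mineralocorticoid receptor, stood at 3.74, 1.80, 7.36, 2.86 and 2.85 in dorDG and at 1.68, 1.45, 1.82, 0.967 and 1.0 in venDG (log2 fold change 1.22 ± 0.215), higher in dorDG in 5 of 5 pairs. Of 17 potassium channel and channel-associated genes tested (symbols beginning with Kcn), 4 were called higher and 0 lower, among them Kcnd2 (0.95), a subunit of A-type channels. Their median unpaired log2 fold change went from 0.668 to -0.0269 without Granule-like cells (13 still tested).

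The genes lower in dorDG in the paired fit included stress, matrix and immune genes. Ppp1r15a, the regulatory subunit that directs a phosphatase to the initiation factor eIF2 during stress, stood at 1.84, 1.99, 0.897, 1.89 and 2.02 UMIs per 10000 in dorDG and at 4.01, 2.67, 2.23, 4.73 and 3.33 in venDG, without overlap, a log2 fold change of -1.05 ± 0.208 (edgeR adjusted p = 0.107 with the block). Col18a1, a basement membrane collagen, had -1.04 ± 0.211 and Tmem176b -0.78 ± 0.219, also without overlap. Chosen after their values were seen, Nnat had a log2 fold change of -1.44, the pericyte gene Vtn -1.40, the reticulon Rtn1 -1.21, the antigen-presentation chaperone Cd74 -1.12, the immediate early gene Nr4a1 -0.71 and Csf1r, the growth factor receptor of microglia, -0.93. Of the 26 genes, 9 had their highest level among classes in Microglia-like and 8 in Mural-like cells, against 8.42% and 8.81% of all genes tested.

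The higher genes shared a place of expression. All 79 had their highest level among classes in Granule-like cells, as had 34.9% of all genes tested, and 78 of 79 were at least 2-fold higher in Granule-like than in other cells, as were 31.0% of all genes tested. These levels come from the same cells and are a description. When the Granule-like cells were left out of the sums, a step added after the data were seen, 62 of the 79 genes could still be tested, and their median unpaired log2 fold change was 0.231 instead of 1.09 over the 79. Of these 62 genes 55 kept their sign, 2 of them at an unadjusted edgeR p under 0.05. Over all 3876 genes tested both ways, 2335 kept their sign, 49 of them at such a p. The median of the 26 lower genes went from -0.804 to -0.521 (25 tested). Without those cells edgeR called 0 genes unpaired (58 at an unadjusted p under 0.05) and 0 with the replicate block (111 at an unadjusted p under 0.05). In the unpaired fit the log2 fold change of Epha7 was 2.15 with and 1.30 without those cells, of Epha6 1.57 and 0.26, of Gria1 1.07 and 0.17 and of Nr3c2 1.32 and 0.39. A ribosome-poor share entered as a covariate beside the block left 2 genes called.

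Both glutamate receptor lists and the GABA-A receptor list had medians above 0 in dorDG. The medians here are unpaired log2 fold changes over the members tested, beside a median of 0.00512 over all 4313 genes, and counts of calls are from the paired fit, which called 1.83% of all genes higher and 0.603% lower. Of 11 ionotropic glutamate receptor genes, 2 were called higher and 0 lower (median 0.707): Gria1, an AMPA receptor subunit (log2 fold change 1.13 with the block), and Grin2a, an NMDA receptor subunit (0.98). Of 4 metabotropic glutamate receptors 1 was called higher, Grm5 (0.92; median 0.871). Without Granule-like cells the medians of both glutamate lists over the members still tested were -0.114 and 0.0829. Of 8 GABA-A receptor genes 1 was called higher and 0 lower, and all 8 were positive in the unpaired fit (median 0.573). Their median went to -0.0515 without Granule-like cells (5 still tested). Of 16 synaptic adhesion genes 3 were called higher and 0 lower, Nrxn3 (1.10), Lrfn5 (1.05) and Cntnap5b (0.63), with a list median of 0.236 that went to -0.278 without Granule-like cells. Of 13 synaptic vesicle release genes and 4 serotonin receptor and transporter genes tested, 0 were called, with 2 and 0 at an unadjusted p under 0.05 in the unpaired test and medians of 0.284 and -0.127. Of 5 corticosteroid receptor and target genes, 2 were called higher and 0 lower, Nr3c2 and the glucocorticoid-induced Zbtb16 (0.75). In the unpaired fit 3 of the 5 were positive and 2 negative (median 0.222), with 1 lower at an unadjusted edgeR p under 0.05.

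Microglial, MHC, immediate early and heat shock lists had medians below 0. Of all 4313 genes 2136 had a negative unpaired log2 fold change, and 0.603% were called lower with the block. All 9 tested genes of microglial homeostasis and complement had a negative unpaired log2 fold change (median -0.688), 5 of them at an unadjusted p under 0.05, and 1, Csf1r, was called lower with the block. All 5 tested genes of MHC class I and II were negative (median -0.461), with Cd74 called lower with the block. All 9 immediate early genes and all 7 heat shock genes were negative as well (medians -0.435 and -0.574), with 1 called lower in each list, Nr4a1 and Hsph1 (-0.76). Of 87 cytosolic ribosomal protein genes, 86 were negative (median -0.279), as were 15 of 15 mitochondrially encoded genes (median -0.480) and 63 of 68 nuclear genes of oxidative phosphorylation (median -0.202), and none of these 3 lists had a called gene in either fit. Without Granule-like cells the medians were -0.393 for the microglial, -0.175 for the MHC, -0.0695 for the immediate early and -0.223 for the heat shock genes. They were 0.0636 for the ribosomal protein genes, 0.0513 for the nuclear oxidative phosphorylation genes and -0.263 for the mitochondrially encoded genes. Of 14 myelin genes and 10 genes of astrocyte uptake, coupling and water transport, 0 were called in either fit, with medians of 0.160 and -0.238.

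Markers of dorsal and ventral hippocampus were barely measurable in these sums. No member of the dorsal list and 1 of 8 in the ventral list passed the filter: Etv1, a transcription factor gene, stood at 0.923 ± 0.213 UMIs per 10000 in dorDG and 0.918 ± 0.153 in venDG (edgeR adjusted p = 0.911). The summed level of the 6 dorsal markers in the tables was 0.764 ± 0.274 in dorDG and 0.901 ± 0.141 in venDG, and that of the 8 ventral markers was 1.85 ± 0.302 and 2.21 ± 0.418, with exact permutation p-values of 0.381 and 0.167. The ventral sum was lower in dorDG in 5 of 5 same-number pairs (exact paired permutation p = 0.0625, the smallest that 5 pairs allow) and the dorsal sum in 4 of 5 (p = 0.188 in that test). Zbtb20, a transcription factor that specifies hippocampal neurons, stood at 10.7, 4.87, 15.8, 7.43 and 9.36 in dorDG and at 6.54, 4.72, 4.50, 4.55 and 4.51 in venDG, with an unpaired log2 fold change of 0.85 ± 0.282 (edgeR adjusted p = 0.412). Lmo4 had -0.27, and the thalamic list members Lef1 and Ntng1 had -0.02 and 0.39, each with an edgeR adjusted p of 0.745 or more. None of 24 summed marker lists passed correction (exact permutation adjusted p of 0.310 or more). The granule list summed to 8.26 ± 2.45 UMIs per 10000 in dorDG and 5.18 ± 0.599 in venDG, and the microglia list to 18.4 ± 6.27 and 27.8 ± 8.79. Of the granule sum, Dock10, which oligodendrocytes also express, gave 2.18 to 4.55 in dorDG and 2.05 to 2.89 in venDG.

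In the sum of all ribosome-rich cells no gene was called after the filter on low values. Of 3742 genes tested, edgeR called 0 (0.0%), while 92 had an unadjusted p under 0.05 (2.46%). There limma and DESeq2 called 0 (92 and 79 at an unadjusted p under 0.05), and 0 were called with the replicate block (98), although 3 of 5 same-number pairs correlated above 0.1 here. Without the filter edgeR called 1 gene, and within ribosome-rich Endothelial-like and Astrocyte-like cells it called 2 each. These were 854 of the 1528 cells. The median log2 fold change of the microglial list was -0.338 and of the myelin list 0.531, with 14 of 14 myelin genes positive and 5 at an unadjusted p under 0.05. The 90 ribosomal protein genes tested had a median of 0.0035. The oligodendrocyte markers of dorDG replicate 2 stood apart in the sum of all its cells, at 303 UMIs per 10000 against 102 to 147 in the other dorDG replicates. Their part in the myelin values was not tested. For Zbtb20 the log2 fold change was 0.36, for Etv1 0.35, for Lef1 -0.01 and for Ntng1 -0.02, with an edgeR adjusted p of 0.9996 for each.

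Ribosome-poor cells differed between the regions without pairing. Of 4510 genes tested, edgeR called 45 higher (0.998%) and 50 lower in dorDG (1.11%), DESeq2 called 129 and limma 0, with 313 at an unadjusted p under 0.05 in limma. With the replicate block 157 were called, and without single replicates 16 (dorDG replicate 5) to 247 (dorDG replicate 2). At an adjusted p of 0.05 only Kcnj6, Cpne7, Sparcl1 and Tenm4 remained. Of the 95 genes, 38 were also among the 105 called in all cells with the block (40.0% and 36.2%). The Granule-like cells were 180 of these 674 cells, and without them edgeR left 0 genes called (141 at an unadjusted p under 0.05) and 12 with the block, both steps added after the data were seen. The median log2 fold change of the 50 lower genes went from -1.30 to -0.988 without them. All 50 were still negative, 27 of them at an unadjusted edgeR p under 0.05. Among all 4124 genes tested both ways, 2717 kept their sign, 123 of them at an unadjusted edgeR p under 0.05. The 50 genes were called in sums that hold these same cells, so a kept sign is a description and not a separate test.

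**Figure D3:**
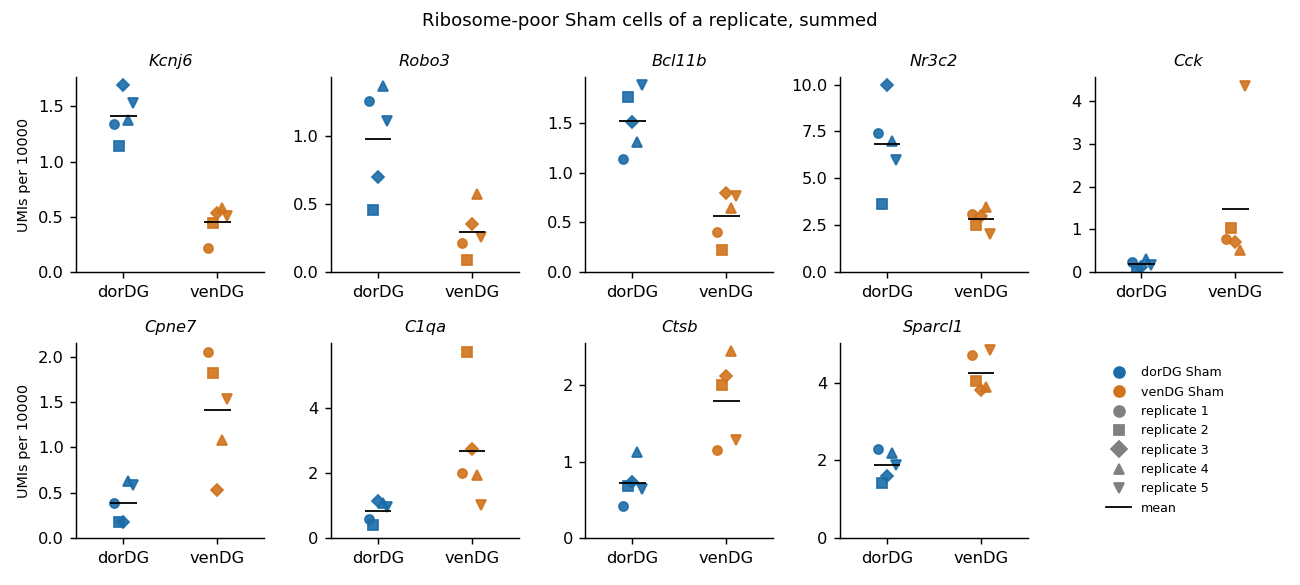
UMIs per 10000 (vertical axes, from 0) of 9 genes in the sum of the ribosome-poor Sham cells of each replicate, with marker shapes for replicate numbers and bars for group means. Kcnj6, Bcl11b and Nr3c2 lay higher and Cck, Ctsb and Sparcl1 lower in every dorDG replicate than in any venDG replicate, and Robo3, Cpne7 and C1qa overlapped.

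The genes higher in ribosome-poor cells of dorDG included ion channel, receptor and adhesion genes of neurons. Kcnj6, a G-protein-gated potassium channel that lowers excitability, stood at 1.34, 1.14, 1.69, 1.37 and 1.53 UMIs per 10000 in dorDG and at 0.214, 0.444, 0.532, 0.578 and 0.511 in venDG, a log2 fold change of 1.69 ± 0.304 (edgeR adjusted p = 0.0366). Nr3c2 stood at 7.40, 3.64, 10.0, 6.99 and 5.99 in dorDG and at 3.12, 2.49, 3.01, 3.47 and 2.04 in venDG, a log2 fold change of 1.15 ± 0.244 (edgeR adjusted p = 0.0630). Both genes were higher in every dorDG replicate than in any venDG replicate. Without overlap were also Bcl11b (log2 fold change 1.53), Klhl29 (1.10), Galnt18 (1.06), the fibrillin Fbn1 (1.06), Mast3 (1.02), the adhesion molecule Cadm2 (1.01) and Plekhg5 (0.79). Among genes named after their values were seen, Robo3, an axon guidance receptor, had 1.76, Epha7 1.70, Dagla, which makes the endocannabinoid 2-arachidonoylglycerol, 1.5, Syndig1, an AMPA receptor-associated protein, 1.49 and Opcml 0.88. All 45 higher genes were at least 2-fold above other cells in Granule-like cells, as were 46.7% of the genes tested, and without Granule-like cells their median log2 fold change was 0.396 (40 tested) instead of 1.06.

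The genes lower in ribosome-poor cells of dorDG included lysosomal, complement, secretory and synaptic genes. Of the 50, 15 had their highest level in Microglia-like cells and 13 (26.0%) in Excitatory-like cells, as had 4.28% and 7.43% of all genes tested. Excitatory-like cells were 1.70% ± 2.34 of ribosome-poor cells in dorDG and 8.09% ± 5.78 in venDG, lower in dorDG in 5 of 5 pairs (exact permutation p = 0.0476, adjusted p = 0.238 over 10 classes). Cck, Atp6ap2, Serinc1 and Sv2b had their highest levels in that class, and its part in their values was not tested. Cck, the neuropeptide cholecystokinin, stood at 0.241, 0.0569, 0.117, 0.312 and 0.176 UMIs per 10000 in dorDG and at 0.774, 1.02, 0.709, 0.505 and 4.35 in venDG, a log2 fold change of -2.65 ± 0.528 (edgeR adjusted p = 0.0528), with venDG replicate 5, the sum of 17 cells, far above the rest. Sparcl1, a secreted glycoprotein that promotes synapse formation, stood at 2.29, 1.42, 1.60, 2.19 and 1.88 in dorDG and at 4.72, 4.04, 3.81, 3.90 and 4.86 in venDG, a log2 fold change of -1.25 ± 0.205 (edgeR adjusted p = 0.0366). Tenm4, a teneurin of the synaptic cleft, stood at 1.44, 0.740, 1.52, 1.56 and 1.41 against 3.18, 2.80, 3.19, 2.74 and 2.30, a log2 fold change of -1.20 ± 0.216. The groups did not overlap for these 3 genes. The same held for the lysosomal proteases Ctsb (-1.48) and Ctsd (-1.31), the proton pump subunit Atp6ap2 (-1.62), Serinc1 (-1.28), Pdzrn4 (-1.29), the vesicle protein Sv2b (-1.16), the neurexin Nrxn2 (-1.16), Sirpa (-1.08) and Cables1 (-1.06). Copine Cpne7, which overlapped by 1 replicate, is named after its values were seen. It had a log2 fold change of -2.08 ± 0.381 (edgeR adjusted p = 0.0366).

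Microglial genes were among the lower ones in cells that were mostly not microglia. Of 7 tested genes of microglial homeostasis and complement 6 were called lower, beside 1.11% of all genes tested, with a list median of -1.54 beside 0.0113 over all genes. C1qa, a subunit of complement C1q, stood at 0.582, 0.398, 1.14, 1.06 and 0.940 UMIs per 10000 in dorDG and at 2.00, 5.73, 2.75, 1.95 and 1.02 in venDG (log2 fold change -1.94 ± 0.381). C1qb had -1.92, the lysosomal protease Ctss -1.73, C1qc -1.54 and Csf1r -1.31. The summed microglia marker list in ribosome-poor cells was 2.63 to 5.31 in dorDG and 3.07 to 19.8 in venDG. Microglia-like cells were 47 of the 674 ribosome-poor cells. Their share of these cells was 6.55% ± 6.73 in dorDG and 10.2% ± 8.62 in venDG. It was lower in dorDG in 3 of 5 same-number pairs and higher in 2 (exact permutation p = 0.524). Without the Granule-like cells the median of the microglial homeostasis and complement list was -0.861. The part of the microglial marker level in these values was not tested. Of 15 mitochondrially encoded genes 1 was called lower, ND3 (-1.32), with a list median of -0.684. Of 14 ionotropic glutamate receptors, 0 were called higher and 1 lower, Grik1 (-0.81), the kainate receptor subunit GluK1. The ventral list member Etv1 had -0.66 ± 0.257 (edgeR adjusted p = 0.388).

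The replicates of the fluoxetine groups, which share no sample with Sham, gave a second set of values for these genes. In ribosome-poor FT cells, 20 of 4341 genes were called (0.461%) and in all FT cells 11 of 3994 (0.275%, 257 with the replicate block). Of the genes called higher in ribosome-poor Sham cells and tested in FT, 34 of 43 had a positive log2 fold change in FT, as had 49.2% of all genes tested in both. Of those called lower, 42 of 49 had a negative one, as had 50.8% of all genes. The medians in FT were 0.312 and -0.371. With the same sign, 6 of the 43 and 9 of the 49 had an unadjusted edgeR p under 0.05 in FT, as had 208 of all 3959 genes. For the genes called with the block in all Sham cells, 47 of 65 higher ones were positive in all FT cells (72.3%, against 48.7% of all genes). Of the lower ones 14 of 25 were negative (56.0%, against 51.3%). Their median log2 fold changes in FT were 0.137 for the higher and -0.0618 for the lower genes. In Sham the unpaired medians were 1.09 over the 79 higher and -0.804 over the 26 lower genes. With the same sign, 4 of the 65 and 2 of the 25 had an unadjusted edgeR p under 0.05 in FT, as had 89 of all 3775 genes. Called in both ribosome-poor Sham and ribosome-poor FT cells were 4 genes, all lower in dorDG (4.21% of the 95 and 20.0% of the 20): Cpne7, Nnat, Grik1 and Ldb2. Ldb2, a cofactor of LIM-homeodomain transcription factors, stood at 0.762, 0.285, 0.466, 0.874 and 0.294 UMIs per 10000 in dorDG Sham and at 2.43, 0.978, 0.709, 1.52 and 1.02 in venDG Sham. In FT it stood at 0.212, 0.190, 0.333 and 0.386 in dorDG and at 2.12, 1.31, 2.55, 1.20 and 2.65 in venDG, a log2 fold change of -2.87 ± 0.400 (edgeR adjusted p = 0.00759). Cpne7 in FT stood at 0.424, 0.380, 0.167 and 0 in dorDG and at 2.52, 1.29, 0.772, 1.69 and 2.34 in venDG. The FT groups did not overlap for either gene. Kcnj6 had a log2 fold change of 0.69 and Nr3c2 of 0.54 in FT, with adjusted p-values of 0.741 and 0.816 in edgeR. The region by treatment interaction called 0 genes in all cells (394 at an unadjusted p under 0.05), 0 in ribosome-rich cells (117) and 0 in ribosome-poor cells (272).

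**Figure D4:**
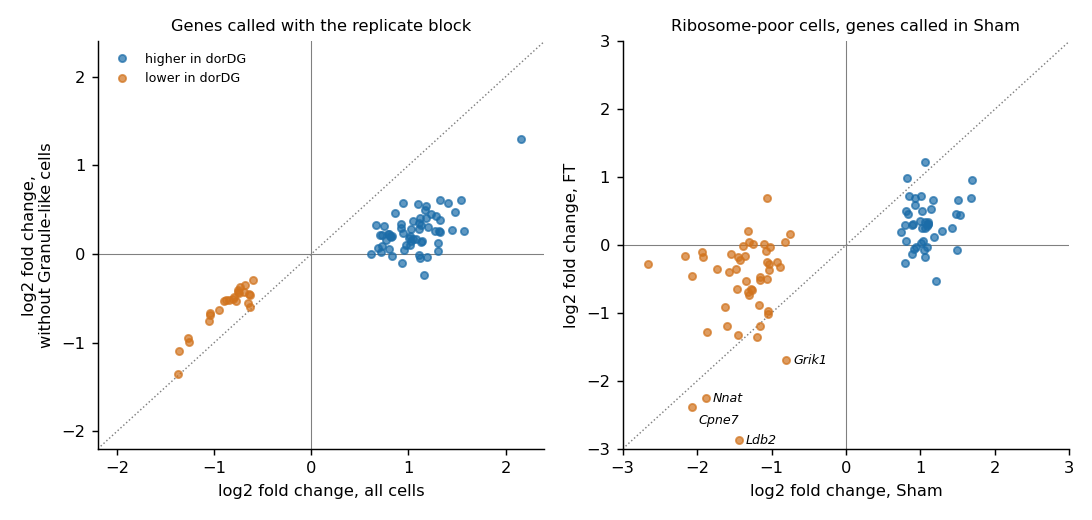
Left, log2 fold change (dorDG over venDG) in all Sham cells (horizontal axis) against the same without Granule-like cells (vertical axis) for genes called with the replicate block; right, log2 fold change in ribosome-poor Sham cells against that in ribosome-poor FT cells for genes called in Sham, with dotted lines of equal change. On the left the higher genes have a median of 0.231 on the vertical axis, and on the right Cpne7, Nnat, Ldb2 and Grik1 are low on both axes.

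Within single classes few genes differed. Endothelial-like cells (106 of dorDG, 110 of venDG, 5 against 4 replicates with at least 5 cells) had 2 of 3735 genes called (0.0535%), both metallothioneins, small proteins that bind zinc and copper. Mt2A stood at 1.61, 0.106, 0.641, 0.518 and 1.30 UMIs per 10000 in dorDG and at 3.99, 4.31, 7.06 and 6.91 in venDG replicates 1, 2, 4 and 5, a log2 fold change of -2.73 ± 0.424 (edgeR adjusted p = 0.00610). Mt1m stood at 1.31, 0, 0.214, 0.518 and 0.976 in dorDG and at 2.61, 3.57, 5.73 and 5.13 in venDG, a log2 fold change of -2.75 ± 0.486 (edgeR adjusted p = 0.0189). Neither gene overlapped between the regions, and both stayed lower in dorDG when any single replicate was left out. Reads of these genes may be split with related metallothionein copies, so the values are uncertain for a single copy. In astrocytes, the class with the most metallothionein in dorDG, both had positive log2 fold changes that were not called (Mt2A 1.03, Mt1m 1.10).

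Granule-like cells of the regions could be compared only in a fit added after the data were seen, since venDG had 2 replicates with at least 5 of them, replicate 1 with 16 and replicate 4 with 13 cells, against 5 dorDG replicates with 5 to 56. Of 4619 genes 9 were called (0.195%), all lower in dorDG. Cpne7 stood at 0.329, 0, 0.170, 0.763 and 0.457 UMIs per 10000 in dorDG and at 4.37 and 1.71 in venDG, a log2 fold change of -3.16 ± 0.470 (edgeR adjusted p = 0.00900). Nnat, a small membrane protein of developing neurons, had -2.93 and Itih3 -2.80. Chosen after their values were seen, Ldb2 had -2.28, Prodh -2.27, LOC100360841 -2.05, Tenm4 -1.77, the transcription factor Tox -1.76 and Ctss -1.69. Without venDG replicate 1 the fit called 0 genes and without venDG replicate 4 it called 25. Most dorDG cells of the class (96 of 147) lay in one of its 2 clusters and most venDG cells (20 of 36) in the other, and venDG replicate 1 gave 14 of the latter. In that replicate the class had 0.515 UMIs per 10000 of Prox1 and 0.0858 of the granule gene Plk5, whereas venDG replicate 4 had 1.97 and 1.58 and dorDG 1.62 to 2.34 and 1.05 to 2.31. The class also had more microglial marker UMIs in venDG (8.41 and 5.26 per 10000) than in dorDG (1.81 to 4.59). The part of this in the value of Ctss was not tested. Itih3 and Prodh were among the most enriched genes of an Astrocyte-like cluster. In the cluster with most venDG cells of the Granule-like class, Itih3 stood at 6.30 in venDG and 1.11 in dorDG. In the other cluster it stood at 1.03 and 0.236. The part of astrocyte transcripts in the values of Itih3 and Prodh was not tested. Ldb2 and Tox were lower in dorDG only in the cluster with most venDG cells. There Ldb2 stood at 0.961 in dorDG and 4.10 in venDG, and Tox at 0.940 and 2.59. In the other cluster Ldb2 stood at 0.493 and 0.459, and Tox at 0.386 and 0.344. Cpne7, Nnat and Tenm4 were lower in dorDG in both clusters. By replicate, Ldb2 stood at 5.66 and 0.920 in venDG and at 0.228 to 1.27 in dorDG.

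**Figure D5:**
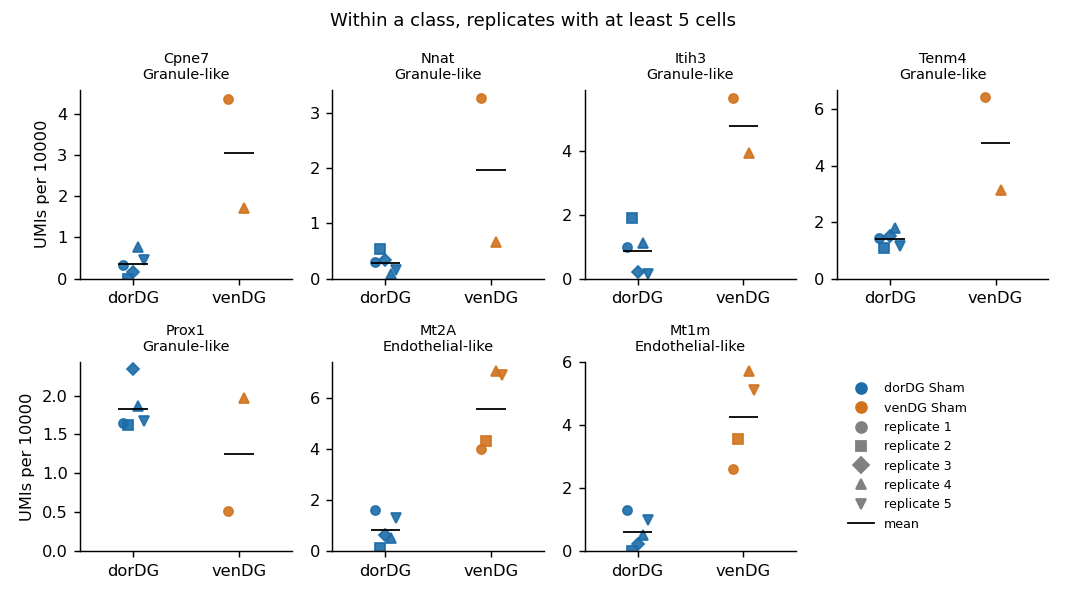
UMIs per 10000 (vertical axes, from 0) of genes within Granule-like and Endothelial-like cells, for replicates with at least 5 cells of the class, with marker shapes for replicate numbers and bars for group means. Cpne7, Nnat, Itih3 and Tenm4 rest on 2 venDG replicates, and Mt2A and Mt1m lay lower in all 5 dorDG than in all 4 venDG replicates.

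Excitatory-like cells, named from Slc17a7, Slc17a6, Neurod6 and Nrgn, were also compared in an added fit of 2 dorDG against 3 venDG replicates. Of 4322 genes 6 were called (0.139%). The class had 0.211 UMIs per 10000 of Gad1 and 0 of Slc32a1 in dorDG, and 0.547 and 0.295 in venDG. Prox1 stood at 1.22 in dorDG and 0.632 in venDG, and Plk5 at 0.968 and 0.505. The class may thus mix neuron types, and the part of this in the values below was not tested. Nts, the neuropeptide neurotensin, stood at 6.83 and 0.476 UMIs per 10000 in dorDG and at 0, 0.317 and 0 in venDG (log2 fold change 5.00 ± 1.02, edgeR adjusted p = 0.0746). Penk, the enkephalin precursor, stood at 0.0669 and 0 in dorDG and at 3.77, 0 and 12.1 in venDG (-6.37 ± 1.38, edgeR adjusted p = 0.110). DESeq2 gave both genes an adjusted p of 0.999, and Penk overlapped between the groups. Without venDG replicate 1 edgeR called 0 genes here, without venDG replicate 4 it called 40. The other 4, Cnp, Sirt2, Cldn11 and Tsc22d4, were lower in dorDG, and Cnp, Sirt2 and Cldn11 are oligodendrocyte genes. The oligodendrocyte marker list in these cells summed to 28.7 and 37.6 in dorDG and to 43.8 to 91.3 in venDG, and its part in these values was not tested.

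Other classes gave no unpaired calls in edgeR or DESeq2. In Astrocyte-like cells 0 of 4432 genes were called in edgeR (81 at an unadjusted p under 0.05, 29 in DESeq2), in Microglia-like cells 0 of 3040 (63 and 45), in Oligodendrocyte-like cells 0 of 3335 (97 and 70), in Mural-like cells 0 of 3810 (121 and 32) and in OPC-like cells 0 of 4445 (201 and 34). The last 2 classes were fitted with 2 dorDG and 3 venDG replicates after the data were seen. The unnamed clusters of 126 and 144 cells had 0 of 4851 and 0 of 4568 (111 and 80 at an unadjusted p under 0.05, 32 and 19 in DESeq2). With the replicate block 6 genes were called lower in Oligodendrocyte-like cells of dorDG, among them Tuba4a, Ppp1r15a, Rtn1, Sat1 and Hsph1. Ppp1r15a there stood at 1.02, 2.42, 1.49, 0.676 and 1.01 UMIs per 10000 in dorDG and at 5.52, 5.81, 4.73, 1.41 and 2.52 in venDG, lower in dorDG in each same-number pair, and the groups overlapped. The Microglia-like cells had 0 calls with the block as well (98 at an unadjusted p under 0.05), although the microglial list had a median of -0.688 in all cells.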

How the data were processed

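The authors deposited raw counts of UMIs per gene and cell, which the sources used here link to Cell Ranger 2.1.0, Seurat 3 and build rn5. Their dorDG annotation (an other unit) served only to compare names. Cells were mapped to label replicates by the reaction in the cell name, and 170 venDG cells with a second suffix, none of them Sham, were left out. UMIs were summed per replicate and tested with edgeR 4.0.16 (R 4.3.3, TMM), after tests on simulated data. Alternatives were DESeq2 1.42.0, limma 3.58.1 on log2(UMIs per 10000 + 0.01), no filter on low counts, other cell filters, a replicate block and each replicate left out. Sham cells were clustered in scanpy 1.11.5 (2000 variable genes, 30 components, 15 neighbours, Leiden resolution 2.0), with classes named from at least 3 markers. No doublet caller was run. Same-numbered replicates were treated as pairs because their deviations correlated above 0.1 in 5 of 5 pairs in all cells and in ribosome-poor cells (3 of 5 in ribosome-rich cells). The labels do not say that they shared animals, and the authors number dorDG replicates differently. Replicates of different numbers reached correlations of 0.28 in all, 0.239 in ribosome-rich and 0.0849 in ribosome-poor cells, so the cut-off of 0.1 did not set same-numbered pairs apart in the first 2. No replicate repeated another (chi-square per degree of freedom of 3.12 to 13.5 over 20 pairs), and 4 Sham cells shared a barcode. Genes named without remark are up to 12 each way (3 within a class) among called genes without overlap, and tested regional markers. Members, lists and tests were chosen with earlier results of these data known. Some results are not reported here.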

Additional observations from a re-analysis of the deposited data

Results flagged for a closer look

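Of 136 sets of 5 replicate values examined for a replicate far from the other 4 of its region, 11 held one, and about 1 in 20 would by chance. Median UMIs per cell were 4220 in venDG replicate 4 against 2660 to 3000 in the other venDG replicates. The summed oligodendrocyte markers were 303 UMIs per 10000 in dorDG replicate 2 (102 to 147 in the others) and the endothelial markers 17.3 in dorDG replicate 4 (8.05 to 10.3). The choroid plexus markers were 6.0 in dorDG replicate 4 (0.0691 to 0.143), nearly all from Ttr, the transthyretin gene. Within that replicate Ttr stood at 5.77 in Astrocyte-like, 5.80 in Endothelial-like, 5.82 in Microglia-like and 5.51 in Granule-like cells.

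In all cells, Ppp1r15a was 0.897 in dorDG replicate 3 (1.84 to 2.02 in the others) and Fam19a1 1.39 in the same replicate (0.518 to 0.76). In ribosome-poor cells, Tenm4 was 0.74 in dorDG replicate 2 (1.41 to 1.56). The 17 ribosome-poor cells of venDG replicate 5 held 4 of the 11, with Cck at 4.35 (0.505 to 1.02 in the other venDG replicates), Sv2b at 2.04 (1.16 to 1.24), Cables1 at 2.04 (0.747 to 1.01) and Mast3 at 0.0 (0.709 to 0.939).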

How the results depend on the processing

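Counts of called genes moved with the test and with single replicates. In all cells, 0 genes became 155 with DESeq2, 61 without a filter on low counts, 105 with the replicate block, 103 with all 4 groups in one fit, 1 after a stricter cell filter and 2 with the ribosome-poor share beside the block. Leaving out 1 replicate gave 0 to 200, with 200 without dorDG replicate 2, 83 without venDG replicate 3 and 1 without dorDG replicate 4. In ribosome-poor cells, 95 became 0 with limma, 167 without a filter, 157 with the replicate block, 4 at an adjusted p of 0.05, 52 with all 4 groups, 0 without Granule-like cells and 12 with the block added. Leaving out 1 replicate gave 16 to 247: 22, 247, 22, 42 and 16 without dorDG replicates 1 to 5, and 48 and 54 without venDG replicates 3 and 5. Ribosome-rich cells had 1 call without a filter and 0 without any replicate. In FT, 11 became 148 with DESeq2 and 257 with the replicate block, and 0 to 37 without 1 replicate.

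Within classes, the block gave 18 calls in Endothelial-like cells (DESeq2 4, 2 to 9 without 1 replicate, 9 without dorDG replicate 5), 1 in Astrocyte-like (2 in ribosome-rich ones, 0 to 3 without 1 replicate), 5 in Mural-like (0 to 6, 6 without venDG replicate 1) and 6 in Oligodendrocyte-like cells. Excitatory-like cells had 3 calls with DESeq2 and 0 to 40 without 1 replicate (0 without venDG replicate 1), Granule-like cells 0 to 25 (25 without venDG replicate 4) and OPC-like cells 0 to 4, where a lone replicate is assumed to vary like the rest. The 1 of 6 cell measures past the threshold, the mitochondrial share, became 0 with means, with first reactions only and without any 1 venDG replicate (0 to 1). The block gave 8 calls in Granule-like and 0 in Microglia-like cells and could not be fitted in Excitatory-like and OPC-like cells.

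Signs turned for the Oligodendrocyte-like share in ribosome-rich cells (4.52 percentage points), for the astrocyte (0.770) and Thalamus (-0.111) sums there, and for Shisa6 (-0.0765) and Dtnb (-0.0161) with the share beside the block. Without 1 replicate the unnamed share spanned -7.14 to 1.36 points, and the sums of astrocyte (-1.13 to 1.29), choroid plexus (-0.0878 to 1.39), neuroblast (-0.045 to 0.0723), CA pyramidal (-0.0499 to 0.0448) and diencephalic markers (-0.0629 to 0.055) crossed 0. The cause was not tested. Of 801 settings for single genes, 561 kept direction and side of the threshold, 160 lost a call, 78 gained one and 2 turned. Replicates of 42 and 59 cells limit the precision of venDG.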

Other observations

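Ttr, the transthyretin gene of the choroid plexus, was high in replicate 4 of dorDG under both treatments. In ribosome-poor cells of dorDG FT it stood at 0, 0, 23.7 and 1.16 UMIs per 10000 in replicates 1, 2, 4 and 5, and at 0 to 0.0594 in venDG FT. In all Sham cells it stood at 5.80 in dorDG replicate 4 and at 0.148 or less in each other replicate.

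Metallothionein outside endothelial cells varied by replicate. In Oligodendrocyte-like cells Mt2A stood at 9.30 UMIs per 10000 in dorDG replicate 3 and 6.92 in venDG replicate 3, and at 0 to 0.767 in the other 8 replicates. In Mural-like cells it stood at 0.826 and 0 in dorDG and at 0.229, 32.9 and 3.36 in venDG (log2 fold change -4.60 ± 1.51, edgeR adjusted p = 0.999).

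Nnat was lower in dorDG than in venDG in several classes without being called outside Granule-like cells. In Astrocyte-like cells it stood at 1.28, 0.645, 0 and 1.36 UMIs per 10000 in dorDG replicates 1, 2, 4 and 5 and at 3.34, 1.11, 3.73 and 4.49 in the same venDG replicates (log2 fold change -1.82 ± 0.596, edgeR adjusted p = 1.0). In OPC-like cells it stood at 2.78 and 4.98 in dorDG and at 5.88, 8.11 and 5.88 in venDG, a log2 fold change of -0.87 (edgeR adjusted p = 0.983).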
